A study of Rattus norvegicus with 2 samples.

Results

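The 10 genes described here act in glucose uptake, glycolysis and lactate handling and were followed through a single-cell RNA series from rat optic nerve: Hif1a, Slc2a1, Hk1, Hk2, Aldoa, Aldoc, Pgk1, Ldha, Ldhb and Slc16a1. They were chosen by symbol, all 10 were found once among the 25399 genes of the count tables, and all 10 had at least 100 UMIs (unique molecular identifiers, counts of captured RNA molecules) over both libraries in each of the astrocyte-like and fibroblast-like cell groups. The cells were mixed primary cultures from the optic nerve, labelled postnatal day 7, from wild-type (WT) Sprague Dawley rats and from Nuc1 rats, which carry a spontaneous insertion in Cryba1, the gene of βA3/A1-crystallin. The methods of the study describe cultures started from younger pups, and neither source gives the number of animals pooled for a library. Each genotype was 1 library of the 10x Genomics 3′ v3.1 assay, so that genotype, culture, animals and library cannot be told apart. No test of genotype was possible. Every interval below is a 95% interval for the counting error of UMIs or, for shares of cells, of cells. None covers the spread between animals or libraries.

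Glycolysis turns glucose into pyruvate in the cytosol. Glucose enters astrocytes through GLUT1, the product of Slc2a1, is phosphorylated by hexokinases (Hk1, Hk2), is split by aldolases (Aldoa, Aldoc), and yields ATP at phosphoglycerate kinase (Pgk1). Lactate dehydrogenase interconverts pyruvate and lactate as a tetramer of A subunits (Ldha) and B subunits (Ldhb), with A-rich forms usually linked to lactate production and B-rich forms to its use, and lactate crosses the membrane through MCT1, the product of Slc16a1. Hif1a encodes the oxygen-regulated subunit of the factor HIF-1, which is known to activate many genes of this pathway. Astrocytes are known as a glycolytic, lactate-exporting cell type, and Aldoc is among their classical markers.

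The WT library held 2107 barcodes and 34517542 UMIs, and the Nuc1 library 1929 barcodes and 35794685 UMIs, with 2 barcode sequences present in both. After cells with under 500 genes or over 20% mitochondrial UMIs were left out, 1968 WT and 1793 Nuc1 cells were kept, with median depths of 14053.5 and 16609 UMIs. Cells were sorted into groups by marker genes that include none of the 10 genes: 109 WT and 325 Nuc1 cells were astrocyte-like, 13 and 107 had motile-cilia markers, 1745 and 1258 were fibroblast-like, 48 and 5 were oligodendrocyte-lineage-like, and 13 and 1 were macrophage-like. Levels are given in CPM, UMIs of a gene per 1000000 UMIs of a cell group, summed over its cells. The astrocyte markers summed to 15781 CPM in the WT and 21386 CPM in the Nuc1 astrocyte-like cells, against 57.6 and 123 in the fibroblast-like cells of the same libraries, while the fibroblast markers in the astrocyte-like cells summed to 257 and 164. The oligodendrocyte-lineage markers had medians over single cells of 246 CPM in the WT and 177 in the Nuc1 astrocyte-like cells. In the fibroblast-like cells these medians were 64.1 and 67.8. Macrophage, endothelial and erythroid markers in the astrocyte-like cells summed to at most 7.39 CPM in either library. The neuron list reached 897 and 842 there and 612 and 261 in the fibroblast-like cells, with 1 gene making up 879, 828, 599 and 251 of these, and 1 or 2 of its 6 markers at 0. Cryba1 had 0 UMIs in both libraries, which allows up to 0.0881 CPM in WT and 0.0854 in Nuc1, so that the genotype labels could not be checked on this gene. The Y-linked gene Eif2s3y was at 0.0881 CPM in WT and 25.7 CPM in Nuc1, and its part in the differences below was not tested.

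The sequences just before the transcription starts are shown for 5 of the 10 genes, as 250 bases read 5′ to 3′ on the gene's strand (RefSeq, GRCr8). Capitals mark ACGTG or its reverse complement CACGT, 1 form of the core that HIF-1 is known to bind. The form GCGTG was not searched for or marked, and it occurs in the Ldhb window shown.
Slc2a1, chr5:138002272-138002521, plus strand: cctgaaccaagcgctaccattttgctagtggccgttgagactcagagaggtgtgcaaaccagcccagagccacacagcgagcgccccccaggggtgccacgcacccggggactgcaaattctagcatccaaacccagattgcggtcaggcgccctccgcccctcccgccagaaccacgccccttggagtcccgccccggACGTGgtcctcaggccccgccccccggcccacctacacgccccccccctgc
Aldoc, chr10:63715294-63715543, plus strand: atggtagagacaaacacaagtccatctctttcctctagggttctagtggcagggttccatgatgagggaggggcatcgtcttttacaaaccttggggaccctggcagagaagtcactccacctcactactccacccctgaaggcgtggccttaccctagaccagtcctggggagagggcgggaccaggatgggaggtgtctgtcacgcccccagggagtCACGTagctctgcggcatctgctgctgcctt
Ldha, chr1:106507842-106508091, plus strand: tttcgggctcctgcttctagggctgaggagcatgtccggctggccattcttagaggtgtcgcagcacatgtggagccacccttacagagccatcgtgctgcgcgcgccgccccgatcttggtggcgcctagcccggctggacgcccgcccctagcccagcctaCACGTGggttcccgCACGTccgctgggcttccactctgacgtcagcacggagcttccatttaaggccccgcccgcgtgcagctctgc
Ldhb, chr4:177177409-177177658, minus strand: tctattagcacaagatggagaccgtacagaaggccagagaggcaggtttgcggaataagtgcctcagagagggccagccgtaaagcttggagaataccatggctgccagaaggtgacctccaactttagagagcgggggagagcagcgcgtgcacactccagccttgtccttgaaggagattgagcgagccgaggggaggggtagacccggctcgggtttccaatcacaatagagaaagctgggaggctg
Hk2, chr4:116841276-116841525, minus strand: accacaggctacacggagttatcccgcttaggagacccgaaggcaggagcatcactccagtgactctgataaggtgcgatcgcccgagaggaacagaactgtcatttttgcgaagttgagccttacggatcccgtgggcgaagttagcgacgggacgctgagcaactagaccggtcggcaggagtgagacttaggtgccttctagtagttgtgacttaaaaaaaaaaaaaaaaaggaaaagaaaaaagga
Among the 10 genes, 9 had an entry, with 12 start sites in all. ACGTG on either strand was found in 7 of these 12 windows (58.3%) and in 5547 of all 33469 windows of the same length (16.6%). These shares were not matched for base content, and Aldoa and Hk1 entered with more than 1 window each. The windows with a match had 58.0% to 74.0% G or C, and those without had 48.8% to 59.6%. The part of base content in the shares was not tested. The Ldha window held 3 matches, with first bases at −87, −86 and −73 from the start, the first of which overlap as CACGTG, the Slc2a1 window held 1 at −51, and the Aldoc window 1 at −31. ACGTG was not found on either strand in the windows of Ldhb and Hk2. The other windows with a match, which are not shown, belong to Hif1a, Hk1, Slc16a1 and Aldoa. The letters TTCNNNGAA, the spacing that STAT factors are known to prefer, were found in 0 of the 12 windows and in 7.67% of all windows. A match in this window is a description of the sequence and not a site of binding.

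The assay reads the 3′ end, so levels were compared for 1 gene between cell groups, and not between genes. Some genes of the pathway were counted at very low levels in every group, for example Tpi1 (triosephosphate isomerase) at 4.38 CPM and Pkm (pyruvate kinase) at 10.6 in the WT astrocyte-like cells. Glycolytic enzymes have near-identical pseudogene copies in rodent genomes, and reads that fit several copies can be lost from the counts. Whether this lowered the counts here was not tested, and the glycolytic genes Gapdh and Eno1 were at 1162 and 847 CPM in the same cells. The absolute levels of Aldoa, Pgk1, Ldha and Hk1 were therefore taken as uncertain.

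The RNA of the glucose transporter Slc2a1 differed between cell groups in both libraries. It was at 409 CPM (345 to 480) in the WT and 326 (303 to 350) in the Nuc1 motile-cilia cells, at 153 (139 to 168) and 113 (105 to 120) in the astrocyte-like cells, at 41.7 (28.2 to 59.6) in the WT oligodendrocyte-lineage-like cells, and at 28.5 (26.6 to 30.5) and 21.4 (19.5 to 23.4) in the fibroblast-like cells. The order motile-cilia, astrocyte-like, fibroblast-like was the same in both libraries and no interval of these 3 groups touched the next within a library. The level in astrocyte-like cells was 5.37-fold that in fibroblast-like cells in WT and 5.27-fold in Nuc1.

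**Figure D1:**
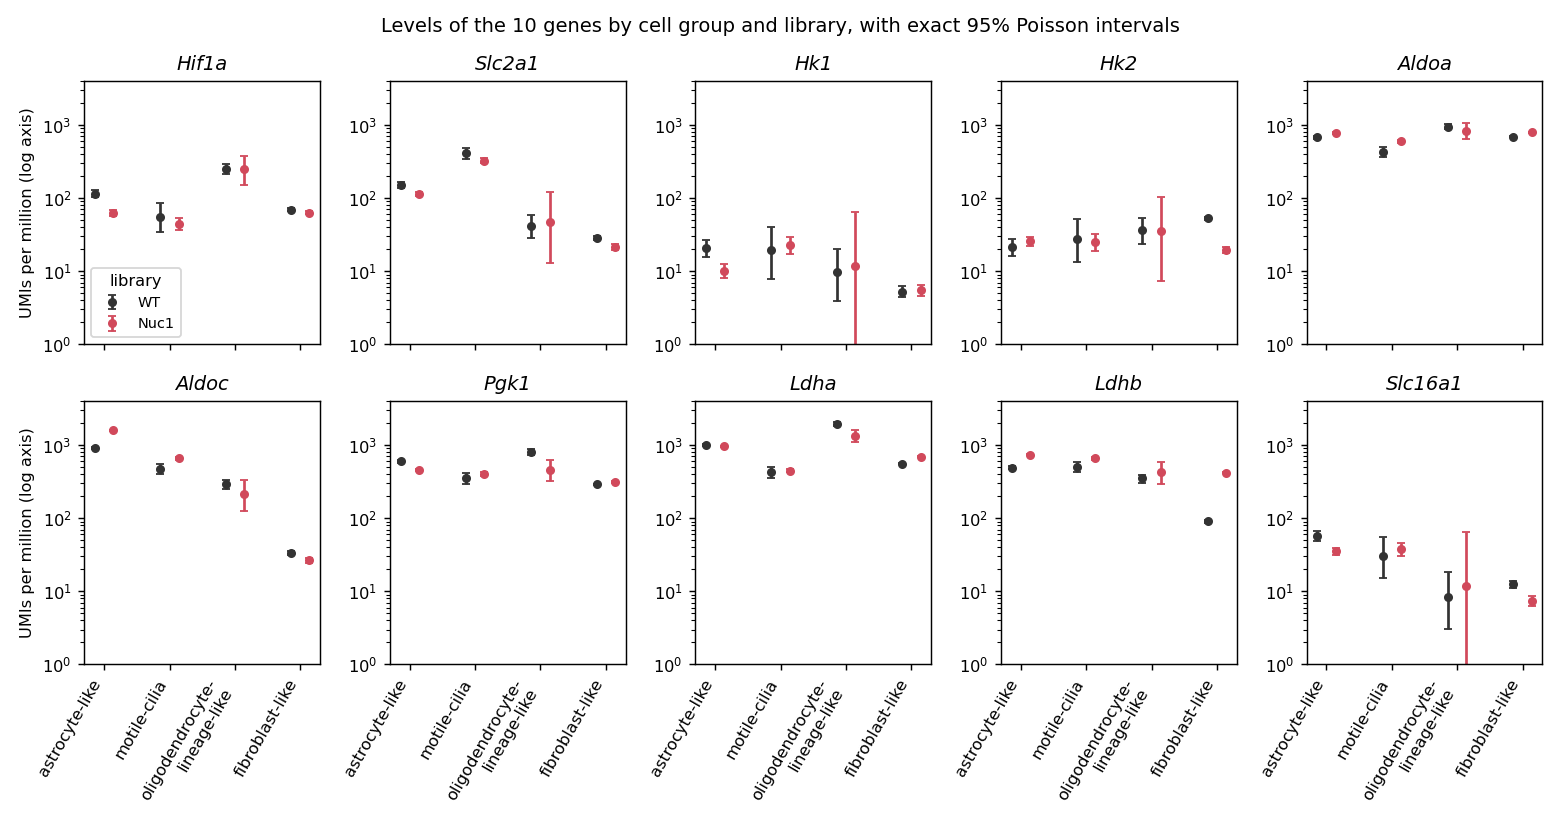
Level of each of the 10 genes in CPM (vertical axis, log scale from 1) in 4 cell groups (horizontal axis), for the WT (dark) and Nuc1 (red) libraries, with exact 95% Poisson intervals, some of which run below the axis in the 5 Nuc1 oligodendrocyte-lineage-like cells. Slc2a1 is highest in the motile-cilia cells (409 and 326), Aldoc is highest in the astrocyte-like cells (908 and 1595) and lowest in the fibroblast-like cells (33.6 and 26.6), and Ldhb in the fibroblast-like cells is the pair of points furthest apart (90.8 and 418).

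The aldolases separated the groups by isoform. Aldoc was at 908 CPM (873 to 945) in the WT and 1595 (1567 to 1623) in the Nuc1 astrocyte-like cells, at 473 (404 to 549) and 663 (631 to 697) in the motile-cilia cells, at 289 (251 to 332) in the WT oligodendrocyte-lineage-like cells, and at 33.6 (31.5 to 35.7) and 26.6 (24.5 to 28.8) in the fibroblast-like cells. Of the Aldoc UMIs of the 13 WT motile-cilia cells, 37.6% came from 1 cell. The astrocyte-like level of Aldoc was 27.1-fold its fibroblast-like level in WT and 59.98-fold in Nuc1. In the 13 WT macrophage-like cells no UMI of Aldoc was seen, which allows up to 20.03 CPM. For comparison, Gfap, the intermediate filament of astrocytes, was at 5.66 and 15.3 CPM in the fibroblast-like cells against 6473 and 9679 in the astrocyte-like cells, and Aqp4, the astrocyte water channel, at 1.20 and 4.54 against 1765 and 1701. Gfap and Aqp4 in fibroblast-like cells were higher in the Nuc1 library, and Aldoc there was higher in the WT library. How much of these counts was RNA carried over from other cells was not tested. Aldoa, the isoform known from muscle and most other tissues, was at 683 and 780 CPM in the astrocyte-like cells and at 689 and 792 in the fibroblast-like cells, and its intervals in these groups overlapped within each library.

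Lactate genes also differed between groups. Ldha was highest in the WT oligodendrocyte-lineage-like cells, at 1940 CPM (1839 to 2044), followed by 1008 (970 to 1046) in the astrocyte-like, 701 (573 to 849) in the macrophage-like, 556 (547 to 564) in the fibroblast-like and 423 (358 to 495) in the motile-cilia cells of that library. In Nuc1, the same gene was at 961 in the astrocyte-like, 691 in the fibroblast-like and 449 in the motile-cilia cells, which is the same order. Ldhb was at 506 (435 to 585) in the WT motile-cilia cells and 493 (467 to 520) in the WT astrocyte-like cells, which overlapped, and at 90.8 (87.3 to 94.3) in the WT fibroblast-like cells. In Nuc1 the spread was smaller, with 742 (723 to 761) in astrocyte-like, 659 (626 to 692) in motile-cilia and 418 (410 to 427) in fibroblast-like cells. The highest of these 3 Nuc1 groups was 1.77-fold the lowest, whereas the WT astrocyte-like level was 5.43-fold the WT fibroblast-like level. Slc16a1 was at 56.6 and 35.3 CPM in the astrocyte-like cells and 12.52 and 7.39 in the fibroblast-like cells, which is 4.52-fold and 4.78-fold.

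The remaining genes gave smaller or less regular differences. Hif1a was highest in the WT oligodendrocyte-lineage-like cells (250 CPM, 215 to 290), was at 116 (103 to 129) in the WT astrocyte-like cells and at 69.3 (66.3 to 72.4) in the WT fibroblast-like cells, while in Nuc1 the astrocyte-like (63.2) and fibroblast-like (63.6) levels overlapped. Pgk1 was at 603 and 456 CPM in the astrocyte-like cells and at 291 and 315 in the fibroblast-like cells. Hk1, the hexokinase known from brain, was at 20.8 (15.8 to 27.0) and 10.1 (8.06 to 12.6) in the astrocyte-like cells and at 5.28 and 5.48 in the fibroblast-like cells. Hk2, the inducible hexokinase, was at 113 (66.1 to 182) in the 13 WT macrophage-like cells, 53.0 (50.4 to 55.7) in the WT fibroblast-like cells and 21.2 (16.1 to 27.4) in the WT astrocyte-like cells. Its Nuc1 levels in astrocyte-like, motile-cilia and fibroblast-like cells lay between 19.6 and 25.7, so the WT order was not seen in Nuc1.

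Counted over all genes, 3 of the 10 (Slc2a1, Aldoc and Slc16a1) were past 2-fold higher in the astrocyte-like than in the fibroblast-like cells in both libraries, and 0 were past 2-fold lower. In the background of 9392 genes that reached 100 UMIs there in each library, 9.1% were past 2-fold higher and 14.5% lower. Ldhb, Hk1 and Pgk1 were past 2-fold higher and Hk2 past 2-fold lower in WT only. The median log2 ratio of all genes, astrocyte-like over fibroblast-like, was −0.18 in WT and −0.35 in Nuc1. Relative to this median, Ldhb (2.62 and 1.17) and Hk1 (2.16 and 1.23) were past 2-fold higher in both libraries, as they were with TMM scaling, and Aldoa was at 0.17 and 0.32. Among 22 further genes of glycolysis, lactate and pyruvate transport, 17 could be tested, of which 6 were past 2-fold higher in the astrocyte-like cells and 0 lower: the phosphofructokinases Pfkl, Pfkm and Pfkp, the phosphofructokinase activator Pfkfb3, the pyruvate dehydrogenase kinase Pdk1 and the mitochondrial pyruvate carrier subunit Mpc1. Pfkfb3 was furthest apart, at 218 CPM in the WT astrocyte-like against 7.03 in the WT fibroblast-like cells and at 130 against 10.3 in Nuc1. Pfkm was at 166 against 51.0 and at 156 against 48.5, Pfkl at 43.1 against 15.8 and at 59.1 against 19.9, and Pfkp at 10.6 against 3.29 and at 7.89 against 2.32. Pdk1 was at 44.9 against 12.8 and at 35.2 against 10.8, and Mpc1 at 251 against 125 and at 269 against 114. Of 14 HIF targets and regulators, 10 could be tested, with 2 higher (Egln3, a HIF prolyl hydroxylase, and Epas1, the subunit of HIF-2) and 3 lower (Arnt, the partner of Hif1a, and the targets Ndrg1 and P4ha1). Egln3 was at 36.2 CPM in the WT astrocyte-like against 0.583 in the WT fibroblast-like cells and at 40.3 against 0.891 in Nuc1, and Epas1 at 216 against 23.0 and at 248 against 40.3. Arnt was at 1.10 (0.226 to 3.20) against 4.84 and at 0.877 (0.352 to 1.81) against 5.70, from only 3 and 7 astrocyte-like UMIs. Ndrg1 was at 14.97 against 84.4 and at 15.3 against 71.5, and P4ha1 at 71.2 against 169 and at 52.2 against 155.

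The motile-cilia cells, which share astrocyte markers, differed from the astrocyte-like cells in both libraries in Slc2a1, past 2-fold higher, and in Ldha, past 2-fold lower. That is 1 of 8 testable genes in each direction, against 8.21% of 4215 genes higher and 6.22% lower. Only 13 of these cells were in the WT library, and 1 cell gave 32.0% of their Slc2a1 UMIs.

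The share of a pair's UMIs that belonged to 1 isoform was compared between cell groups and libraries. Since the levels of Aldoa, Ldha and Hk1 are uncertain, the shares do not say which isoform of a pair was the more abundant. Aldoc made up 57.1% (55.6 to 58.6, exact binomial) of the aldolase UMIs in the WT and 67.2% (66.5 to 67.8) in the Nuc1 astrocyte-like cells, 52.5% and 52.4% in the motile-cilia cells, 23.3% (20.5 to 26.2) in the WT oligodendrocyte-lineage-like cells, and 4.64% (4.36 to 4.93) and 3.25% (2.996 to 3.51) in the fibroblast-like cells. The Aldoc share thus separated the neural groups from the fibroblast-like cells in both libraries. Ldhb made up 54.5% (49.0 to 59.9) and 59.5% (57.6 to 61.4) of the lactate dehydrogenase UMIs in the motile-cilia cells, 32.8% (31.4 to 34.3) and 43.6% (42.7 to 44.4) in the astrocyte-like cells, 15.3% (13.6 to 17.1) in the WT oligodendrocyte-lineage-like cells, and 14.04% (13.5 to 14.5) and 37.7% (37.1 to 38.3) in the fibroblast-like cells. The Ldhb share was higher in Nuc1 in the motile-cilia, astrocyte-like and fibroblast-like cells, with overlapping intervals in the first. Hk2 made up 50.4% (41.0 to 59.9) and 71.7% (66.1 to 76.8) of the hexokinase UMIs in the astrocyte-like cells, from 115 and 286 UMIs, and 90.9% (89.5 to 92.3) and 78.2% (74.5 to 81.5) in the fibroblast-like cells, so the library with the higher Hk2 share differed between these groups.

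**Figure D2:**
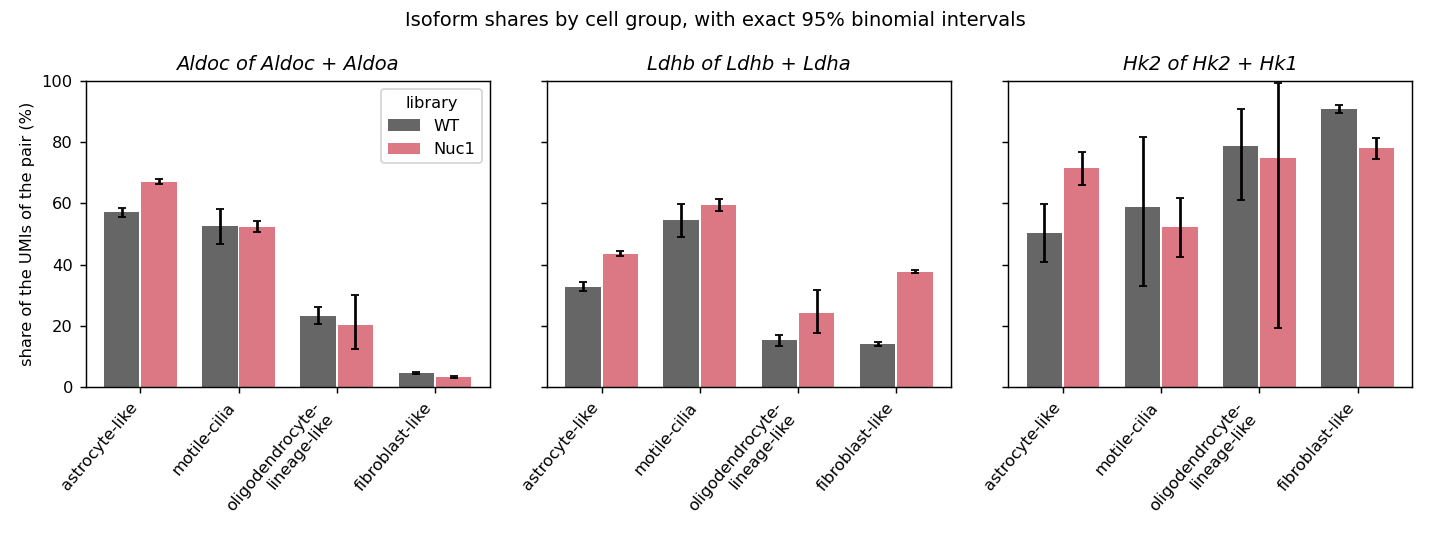
Share (vertical axis, percent) of Aldoc, Ldhb and Hk2 in the UMIs of their isoform pair in 4 cell groups of the WT (dark bars) and Nuc1 (red bars) libraries, with exact 95% binomial intervals. The Aldoc share is 57.1% and 67.2% in astrocyte-like cells and under 5% in fibroblast-like cells, and the Ldhb share in fibroblast-like cells is 14.04% in WT and 37.7% in Nuc1.

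Between genotypes, the astrocyte-like cells, the cell type the study addressed, had 5 of the 10 genes past 1.5-fold. Aldoc (908 to 1595 CPM, log2 ratio of Nuc1 over WT 0.81, 0.75 to 0.87) and Ldhb (493 to 742, 0.59, 0.50 to 0.68) were higher in the Nuc1 library, and Hif1a (116 to 63.2, −0.87, −1.08 to −0.67), Hk1 (20.8 to 10.1, −1.04, −1.54 to −0.52) and Slc16a1 (56.6 to 35.3, −0.68, −0.97 to −0.39) were lower. Ldhb lay at 1.51-fold, just past the limit, and was within it under 7 of 15 alternatives (log2 ratios of 0.54 to 0.72 over all 15). Of these alternatives, leaving out glial cells with fibroblast RNA removed no astrocyte-like cell, and lifting the UMI minimum cannot move a ratio. Of 7345 genes with at least 100 UMIs, 5.75% were past 1.5-fold higher and 12.8% lower in Nuc1, 18.5% in all, and their median log2 ratio was −0.12. Relative to that median, Aldoc (0.94), Ldhb (0.71), Hif1a (−0.75) and Hk1 (−0.91) were past 1.5-fold and Slc16a1 (−0.56) was within it, and Ldha was at 0.054, on the other side of 0. The other 5 lay within 1.5-fold, with Slc2a1 at −0.44, Pgk1 at −0.40, Ldha at −0.07, Aldoa at 0.19 and Hk2 at 0.28, an interval of −0.15 to 0.72. The median of the 10 log2 ratios was −0.24.

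These differences moved with the mitochondrial share of the cells. The median mitochondrial share was 12.6% in the WT and 10.96% in the Nuc1 astrocyte-like cells, and only 20 of the 109 WT cells, against 134 of the 325 Nuc1 cells, were at or under 10%. In the cells at or under 10%, Aldoc was at 500 CPM in WT and 1926 in Nuc1 (log2 ratio 1.94), and in the cells over 10% at 988 and 1294 (0.39, within 1.5-fold). Gfap showed the same pattern, with 3799 and 10915 CPM at or under 10% and 6995 and 8555 over it. Ldhb was at 462 and 747 (0.69) at or under 10% and at 499 and 736 (0.56, within 1.5-fold) over it. Hif1a was lower in Nuc1 on both sides, by a log2 ratio of −0.50 in the first and −1.05 in the second, whereas Slc16a1 gave 0.22 (−0.60 to 1.17) and −0.76. Hk1 was at 20.1 and 11.3 CPM (−0.83, −1.89 to 0.39) at or under 10% and at 20.96 and 9.09 (−1.21, −1.86 to −0.56) over it, past 1.5-fold on both sides, but its 52 and 86 UMIs were under the minimum of 100. Among genes that reached the minimum, 2 of the 10 were past 1.5-fold at or under 10% (Aldoc and Ldhb, both higher) and 2 over it (Hif1a and Slc16a1, both lower), an alternative chosen after seeing the data. When each cell was thinned to 10000 UMIs, these were 3 (Aldoc and Ldhb higher, Slc16a1 lower), with Hk1 at −0.83 from 44 UMIs and Hif1a at −0.47, within 1.5-fold. The part of the mitochondrial share in these results was not tested.

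Of the further genes of the pathway, 12 could be tested between genotypes in the astrocyte-like cells, with 0 past 1.5-fold higher and 1 lower, Pfkfb3 (218 to 130 CPM), against the 5.75% higher and 12.8% lower of all genes. Among the HIF targets and regulators, 9 could be tested, with 1 higher and 2 lower against the same shares. The secreted factors Vegfa (35.4 to 7.76 CPM) and Adm (38.7 to 11.9) were lower in the Nuc1 library and Ddit4, a stress-induced inhibitor of mTORC1, was higher (40.5 to 62.4).

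**Figure D3:**
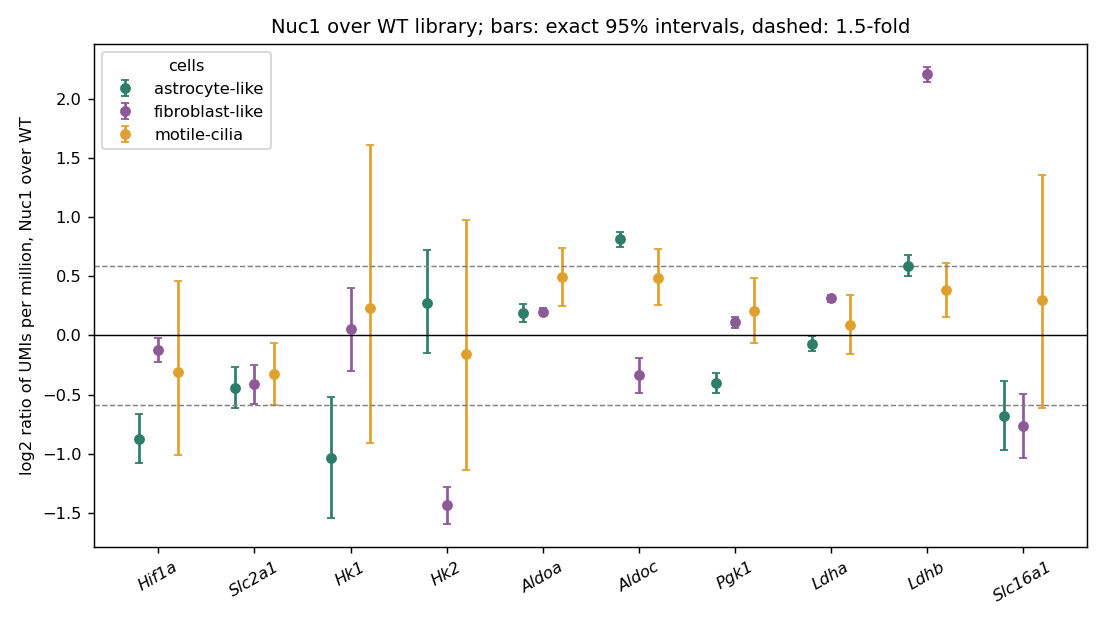
Log2 ratio of CPM, Nuc1 over WT (vertical axis), for the 10 genes (horizontal axis) in astrocyte-like (green), fibroblast-like (purple) and motile-cilia cells (orange), with exact 95% intervals for counting error and dashed lines at 1.5-fold. Ldhb in fibroblast-like cells (2.20) and Hk2 in fibroblast-like cells (−1.43) lie furthest from 0, and Aldoc lies above 0 in astrocyte-like (0.81) and below 0 in fibroblast-like cells (−0.34).

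In the fibroblast-like cells, Ldhb gave the largest ratio of the 10 genes in the astrocyte-like, fibroblast-like and motile-cilia cells. Ldhb was at 90.8 CPM (87.3 to 94.3) in WT and 418 (410 to 427) in Nuc1, a 4.61-fold difference (log2 ratio 2.20, 2.14 to 2.27) that ranked 132 from the highest among 10331 genes. Hk2 was at 53.0 (50.4 to 55.7) and 19.6 (17.8 to 21.5), which is 2.704-fold lower in Nuc1 (−1.43, −1.59 to −1.28). Slc16a1 was at 12.52 and 7.39 (−0.76, −1.03 to −0.49). These were 3 of the 10 genes past 1.5-fold, 1 higher and 2 lower, against 9.26% of all genes higher and 9.07% lower, 18.3% in all. The other 7 lay between −0.41 for Slc2a1 and 0.31 for Ldha. None of the 17 testable further genes of the pathway was past 1.5-fold. In the motile-cilia cells, 0 of 8 testable genes were past 1.5-fold, against 21.8% of 4045 genes. Ldhb in these cells was at 506 and 659, and Slc2a1 at 409 and 326.

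The mix of fibroblast types differed between the libraries, so Ldhb and Hk2 were also read within types set by the higher-scoring pair of marker genes. Cells led by Ccn3 and Rspo3 numbered 902 in WT and 166 in Nuc1, those led by Actg2 and Penk 428 and 160, those led by Cldn11 and Thbd 286 and 476, and those led by Inmt and Cyp26b1 9 and 216. Ldhb was at 83.3 and 300.3 CPM in the Ccn3/Rspo3 type, at 60.7 and 199 in the Actg2/Penk type and at 124 and 440 in the Cldn11/Thbd type, 3.60-, 3.28- and 3.55-fold higher in Nuc1. In the Inmt/Cyp26b1 type it was at 478 (from 59 UMIs in 9 cells) and 676, within 1.5-fold. Hk2 in the first 3 types was at 63.4 and 17.3, 43.3 and 19.8, and 42.6 and 17.6 CPM, lower in Nuc1 in each. The mean log2 ratio over these 3 types, an alternative chosen after seeing the data, was 1.80 for Ldhb, against 2.20 over all fibroblast-like cells, and −0.47 for Slc16a1, within 1.5-fold. Within each library, Ldhb was lowest in the Actg2/Penk type and highest in the Inmt/Cyp26b1 type, while Ldha was highest in the Actg2/Penk type, at 736 and 930.03 CPM.

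**Figure D4:**
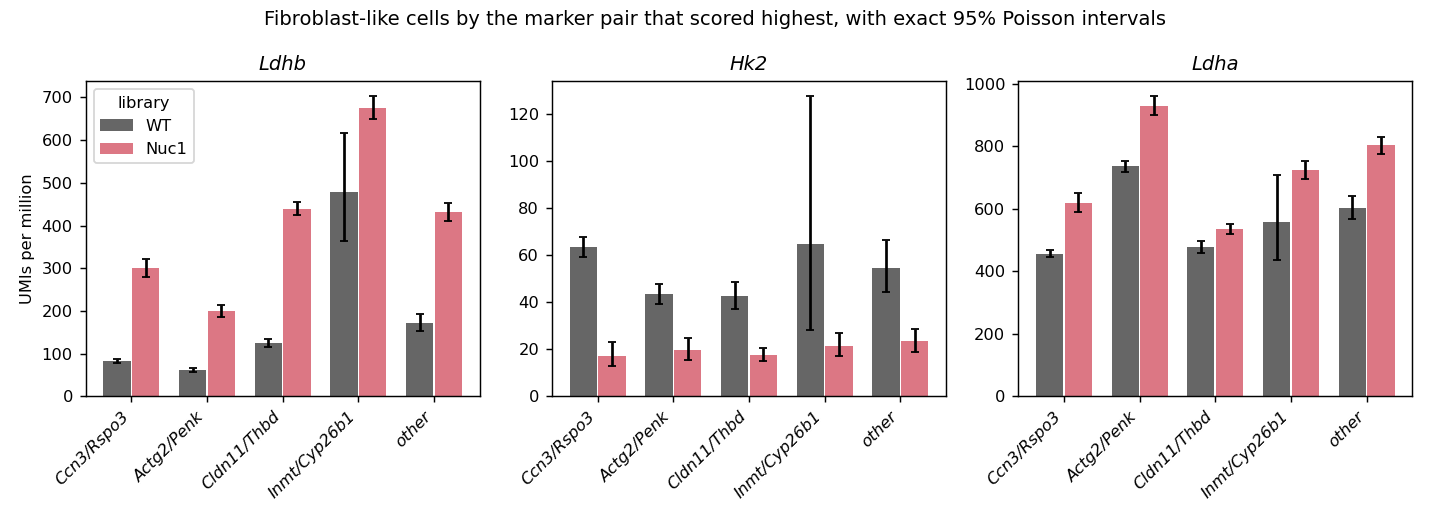
Ldhb, Hk2 and Ldha in CPM (vertical axes, from 0) in fibroblast-like cells split by their leading marker pair (horizontal axes), for the WT (dark) and Nuc1 (red) libraries, with exact 95% Poisson intervals. Ldhb is higher and Hk2 lower in Nuc1 in every type, although the WT bar of the Inmt/Cyp26b1 type rests on 9 cells and its interval for Ldhb stays below the Nuc1 value of 676.

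The Ldhb counts of single cells were read over all fibroblast-like cells and within the types. With each cell thinned to 10000 UMIs, the median fibroblast-like cell held 1 Ldhb UMI in WT and 3 in Nuc1 (1 and 5 before thinning), and the upper 10% of cells began at 2 and 10. The share of cells with no Ldhb UMI was 49.0% (46.4 to 51.5) of 1491 WT cells and 19.3% (17.0 to 21.8) of 1083 Nuc1 cells, while 254 and 175 shallower cells were left out. Among the Nuc1 cells, 141 (13.0%, 11.1 to 15.2) held more than 9 UMIs, the number in the highest WT cell, and the highest held 100. The intervals of these shares take the cells of 1 library as units, so they do not cover the spread between animals or libraries. Within the types, the median thinned cell held 0 Ldhb UMIs in WT and 1 in Nuc1 in the Ccn3/Rspo3 and the Actg2/Penk types, and 1 and 3 in the Cldn11/Thbd type. A single Nuc1 cell held 20.1% of the Ldhb UMIs of the Actg2/Penk type and 12.3% of those of the Ccn3/Rspo3 type, against 2.22% in the Cldn11/Thbd type. Ldha differed less, with medians of 5 and 6. In the astrocyte-like cells, the median Aldoc count was 7 in 107 WT cells and 13 in 303 Nuc1 cells. Of the Nuc1 cells, 17 (5.61%, 3.30 to 8.83) held more than the 32 UMIs of the highest WT cell. A count past the highest cell also depends on how many cells each library held. Hk2, Hif1a and Slc16a1 had medians of 0 or 1 per thinned cell in both of these groups, too few for a reading per cell.

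**Figure D5:**
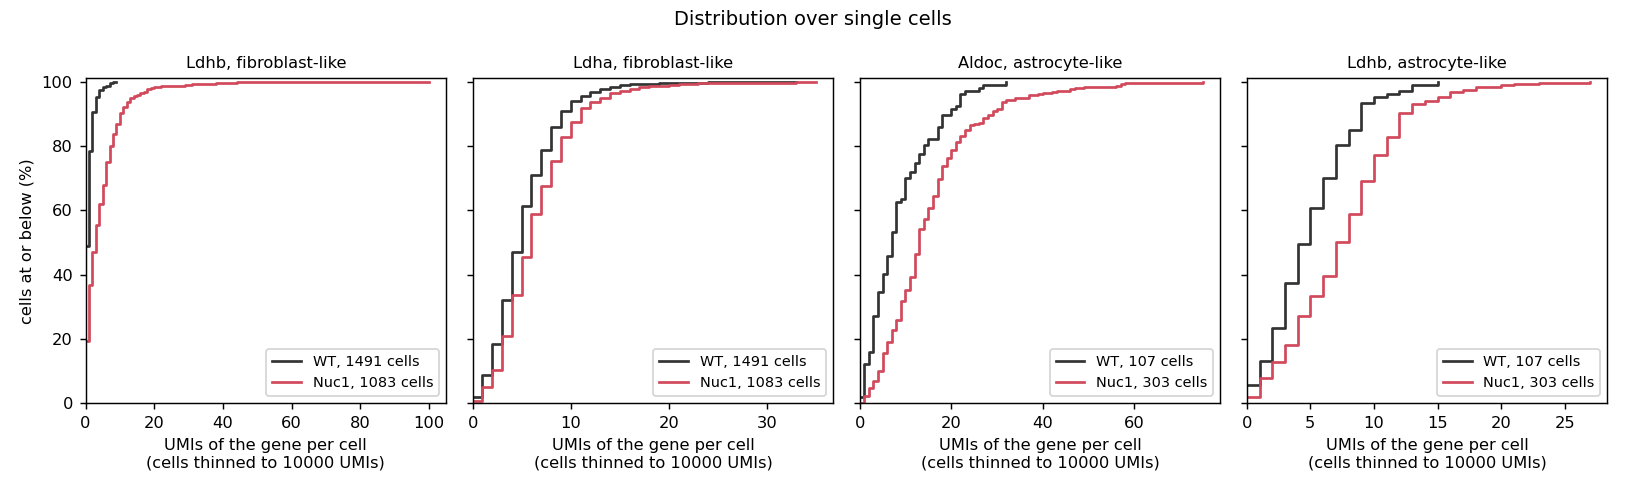
Percent of cells at or below a given number of UMIs (vertical axis) against the number of UMIs of the gene in a cell thinned to 10000 UMIs (horizontal axis), for Ldhb and Ldha in fibroblast-like cells and Aldoc and Ldhb in astrocyte-like cells, WT dark and Nuc1 red. The Nuc1 curves of Ldhb in fibroblast-like cells and Aldoc in astrocyte-like cells lie to the right of the WT curves along most of their length, with medians of 3 against 1 and 13 against 7.

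Dividing fibroblast-like cells, 137 in WT and 60 in Nuc1, held more Pgk1 (489 against 264 CPM in the other fibroblast-like cells of WT, and 502 against 298 in Nuc1) and more Ldha (768 against 526, and 910.3 against 671), both within 2-fold. Aldoc was past 2-fold lower in them in both libraries (15.3 against 36.1, and 8.05 against 28.3), 1 of 10 genes against 2.31% of 8858 genes. Ldhb was higher in the Nuc1 library in the dividing cells (73.8 to 189) and in the others (93.1 to 439).

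Because the astrocyte-like and motile-cilia cells made up more of the Nuc1 library (18.1% and 5.97% of kept cells, against 5.54% and 0.661%), sums over all cells did not follow the groups. Slc2a1 over all kept cells was at 44.2 CPM in WT and 66.1 in Nuc1, although it was lower in Nuc1 in the astrocyte-like, the motile-cilia and the fibroblast-like cells. For Slc16a1 the sums were 16.9 and 16.6, although it was lower in Nuc1 in the astrocyte-like and fibroblast-like cells. Aldoc over all cells was at 127 and 473 CPM, 3.72-fold apart, while within the astrocyte-like cells it was 1.76-fold apart.

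Across 13 points, the cell groups of both libraries with at least 20 cells, the genes most like Aldoc in log2 level were Ttyh1 (Pearson r 0.99), Vsir (0.99) and Lhx2 (0.99) among 6747 genes. Those most like Slc2a1 were Coq8b (0.98), Hspa4l (0.97) and Tppp3 (0.97), and those most like Ldha were Cfl1 (0.97), Arhgdia (0.94) and Mlf2 (0.93). The closest to Ldhb were the unnamed genes AC134224.1 (0.90), AABR07045680.1 (0.89) and AC134224.2 (0.88). The points share libraries and 9 of them are fibroblast types, so these values describe likeness only.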

How the data were processed

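Cells were profiled in 1 WT and 1 Nuc1 library. Per the labels, the authors deposited raw counts, that is UMI counts per gene and barcode from Cell Ranger 3.1.0 (STAR 2.7), and used Seurat 3.1.0 and 3.1.1 downstream. The genome build of the counts is not given in the sources used here, and the authors' clusters were not used here. The 10 genes, the marker lists and the further gene lists were chosen with earlier results of these data known.

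Barcodes were kept if 500 or more genes were detected and the 13 mitochondrial genes gave no more than 20% of UMIs. A cell joined a group when its mean ln(1 + UMIs per 10000) over that group's markers was at least 1.0, a limit set after the marker scores were seen. The numbers of cells within 0.25 of it were 17 and 24 for the astrocyte list and 19 and 95 for the fibroblast list (WT and Nuc1). Cells reaching the limit for more than 1 list (20 and 44) were set apart, including any doublets of unlike cells that did so. The exception was that cilia and astrocyte markers together gave the motile-cilia group. No doublet caller was run, so doublets of like cells, and of unlike cells that reached the limit for only 1 list, stay in. The 18 and 48 cells that reached no list entered no group. Fibroblast types were set by the highest of 4 scores of 2 genes, at least 1.0, and dividing cells by a score of at least 0.75.

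UMIs were summed per group and library and divided by the group's total (CPM, per 1000000 UMIs). Poisson and binomial (Clopper-Pearson) intervals and intervals of ratios conditional on the sum were exact and at 95%, covering counting error only. For shares of cells, the cells of 1 library were the units counted. A zero was given an upper limit of 3 counts. With 1 library per genotype there was no test, and a gene counted as different when it passed 1.5-fold between genotypes (at least 100 UMIs over both libraries) or 2-fold in the same direction in both libraries between cell groups (at least 100 UMIs in each library). Medians over all genes were computed with 0.5 UMIs added, and likeness on log2(CPM + 10) over genes with at least 1000 UMIs. The named genes were the 10 genes, those of the further lists past these limits between the main cell groups or between genotypes in astrocyte-like cells, and the 3 genes most like Aldoc, Ldhb, Ldha and Slc2a1. Symbols listed more than once (99) were not used. The interval calculation was run on simulated Poisson counts with 200 changed genes. In the astrocyte-like comparison, run on 7345 genes, 95.8% of intervals held the true ratio. These counts follow the model that the intervals assume, so this checks the calculation, not the spread between cells or libraries. Promoter windows came from RefSeq (GRCr8). Python 3.11.15, numpy 2.4.6, scipy 1.17.1, pandas 2.3.3, matplotlib 3.10.9, R 4.3.3 and edgeR 4.0.16 (TMM factors only) were used. Alternatives covered the limits on cells, the gate, thinning, the averaging of cells and the scaling. Leaving out glial cells with fibroblast RNA removed no astrocyte-like cell, and lifting the UMI minimum cannot move a ratio. A minimum of 200 genes added no WT astrocyte-like UMIs, so these settings repeat or nearly repeat the reported ratios of those cells.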

Additional observations from a re-analysis of the deposited data

Results flagged for a closer look

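For 3 of the 10 genes the log2 ratio of Nuc1 over WT had opposite signs in the astrocyte-like and the fibroblast-like cells, with both intervals clear of 0. Hk1 (−1.04 and 0.05) and Hk2 (0.28 and −1.43) also differed in sign, each with an interval that held 0 in 1 of the groups. The difference between these cell groups was not tested, since each group came from 1 library per genotype. Aldoc was at 0.81 in the astrocyte-like and −0.34 in the fibroblast-like cells, and both signs were kept under each alternative run. Pgk1 was at −0.40 and 0.11, with both signs kept likewise. In the fibroblast-like cells with over 10% mitochondrial UMIs, however, it was at 0.0091, with an interval that held 0 (−0.094 to 0.112). By type, the mean thinned cell held less Pgk1 in Nuc1 in the Cldn11/Thbd type (2.50 UMIs in WT, 2.23 in Nuc1). It held more in the Ccn3/Rspo3 (2.30 and 2.46) and Actg2/Penk types (3.58 and 4.09). Ldha was at −0.069 and 0.31, and its astrocyte-like value was above 0 under 2 of 15 alternatives, the median of all genes set to 0 and TMM scaling. No group held enough libraries for a search for outlying libraries.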

How the results depend on the processing

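No paired analysis was possible because a genotype was a single library, and for the same reason no replicate could be left out. Of the 10 genes, the number past 1.5-fold in the astrocyte-like cells was 5 as reported, 2 with at most 10% mitochondrial UMIs, 2 with over 10%, 3 with cells thinned to 10000 UMIs and 3 with the motile-cilia cells added, where the settings with over 10% and with motile-cilia cells were chosen after seeing the data. Hk1 left the counts at most 10%, over 10% and with thinned cells because its 52, 86 and 44 UMIs there were under the minimum of 100, while its log2 ratio lay between −1.21 and −0.66, past 1.5-fold, under all 15 alternatives. With at most 10% mitochondrial UMIs, Slc16a1 turned to a log2 ratio of 0.22 (interval −0.60 to 1.17), from −0.68. The number past 2-fold between astrocyte-like and fibroblast-like cells was 3 as reported and 5 both with the median ratio of all genes set to 0 and with TMM scaling. The Aldoc share in astrocyte-like cells (57.1% in WT, 67.2% in Nuc1) became 38.0% in WT and 70.8% in Nuc1 with at most 10% mitochondrial UMIs, 60.1% and 62.8% with over 10%, and in Nuc1 68.4% with a stricter gate, 66.3% with assignment by the whole profile, 65.8% with thinned cells and 65.1% with the motile-cilia cells added. The Ldhb share (32.8% and 43.6%) became 29.0% and 41.9% with at most 10% mitochondrial UMIs, 34.4% and 45.3% as a mean over cells, 34.5% and 46.1% with the motile-cilia cells added, and in Nuc1 44.98% with thinned cells and 45.2% with over 10% mitochondrial UMIs. For the setting with at most 10% mitochondrial UMIs, 20 WT astrocyte-like cells remained. The cause of these changes was not tested. Over all alternatives run, the log2 ratio of Aldoc in astrocyte-like cells lay between 0.39, within 1.5-fold in the cells with over 10% mitochondrial UMIs, and 1.94, and in fibroblast-like cells that of Ldhb between 1.80 and 2.32 and that of Hk2 between −1.67 and −1.35. Depth limited Hk1 (57 and 81 UMIs) and Hk2 (58 and 205 UMIs) in astrocyte-like cells.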
